A study of Mus musculus with 20 samples.

Results

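The transporters, receptors and storage proteins that handle zinc, magnesium and iron were followed in mouse liver across feeding state and Prox1 genotype. They were taken by symbol from a table of 29915 genes: all Slc30, Slc39 and Slc41 family members, together with Slc40a1, Slc11a1, Slc11a2, Tfrc, Tfr2, Trf, Fth1 and Ftl1. This gave 35 genes, made up of 10 in the Slc30 family, 14 in the Slc39 family, 3 in the Slc41 family and 8 genes of iron uptake, export and storage. Tfr2 stands in the table under its older symbol Trfr2. The set was picked because Slc41a2 and Slc39a14 differed between refed and fasted livers, so the refeeding values of those 2 genes are given as a description without a test and are left out of every count of refeeding or of its difference between genotypes.

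The livers came from male mice kept on chow under 12 h of light and 12 h of dark. The mice carried either wild-type Prox1, a transcription factor, or a conditional Prox1 allele in which a lysine that takes up the small protein SUMO is replaced by arginine (K556R) in hepatocytes. Cre recombination switched the K556R allele on at 8 weeks of age, and livers were collected 11 weeks later, between ZT 15 and 17 (ZT counts hours from lights on). The 4 groups were K556R refed, K556R fasted, wild type refed and wild type fasted, with 5 poly(A)-selected libraries each. The sample titles name the genotypes Cre and Ctrl, so effects of K556R and of Cre cannot be told apart. The sources used here do not give the lengths of fasting and refeeding, the Cre line or the animal behind each library, so p-values measure the spread between these libraries.

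Zinc is moved out of the cytosol by Slc30 proteins (ZnT) and into it by Slc39 proteins (ZIP), several of which also carry manganese or iron. Free cytosolic zinc is kept low by metallothioneins, whose genes are switched on by the zinc sensor Mtf1. Slc41 proteins carry magnesium. The liver is a main store of iron and makes hepcidin, the hormone that removes the only known iron exporter, Slc40a1 (ferroportin), from cell surfaces.

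Cells also set iron uptake and storage through iron-responsive elements, short RNA hairpins bound by iron regulatory proteins when iron is scarce. In a 5′ UTR such a hairpin blocks translation, and in the 3′ UTR of Tfrc several of them protect the mRNA from decay.

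A search of GENCODE transcripts on GRCm38 for this hairpin found it in 4 of the 35 genes (11.4%) and in 22 of 21924 protein-coding genes (0.1%). The pattern held a bulged C, a loop CAGTGN of 6 bases, an upper stem with 5 of 5 bases paired and a lower stem with at least 4 of 6 bases paired. The minimum for the lower stem was lowered to 4 after the first matches had been seen, because Fth1 did not match before. The sites are shown because they separate the genes whose protein output iron can set through a 5′ hairpin from Tfrc, whose mRNA level it can set through 3′ hairpins. Each site has 29 bases and is given 5′ to 3′ on the strand of the gene, in DNA letters, with the loop in capitals.
Fth1, 5′ UTR, chr19:9982732-9982760, plus strand: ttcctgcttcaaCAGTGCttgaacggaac
Ftl1, 5′ UTR, chr7:45459779-45459807, minus strand: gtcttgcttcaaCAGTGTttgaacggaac
Slc40a1, 5′ UTR, chr1:45925465-45925493, minus strand: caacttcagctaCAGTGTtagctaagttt
Tfrc, 3′ UTR, chr16:32631219-32631247, plus strand: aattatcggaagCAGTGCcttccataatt
Tfrc, 3′ UTR, chr16:32631598-32631626, plus strand: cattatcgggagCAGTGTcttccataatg
Tfrc, 3′ UTR, chr16:32631663-32631691, plus strand: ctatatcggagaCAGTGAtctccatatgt
Tfrc, 3′ UTR, chr16:32631710-32631738, plus strand: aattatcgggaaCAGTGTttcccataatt

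Fth1 and Ftl1 encode the heavy and light chains of ferritin, the iron store, and their hairpins share the upper stem around the loop. The Slc40a1 hairpin lies in the 5′ UTR like those of ferritin, and Tfrc carries 4 matches in its 3′ UTR. Slc11a2 had no match to these letters in any transcript searched. The pattern misses hairpins whose upper stem is not fully paired, so the lack of a match does not show that a gene lacks the element. A match is a description of sequence and was not tested for binding.

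Library totals ran from 33746054 to 50647297 reads assigned to genes, 14 libraries were labelled batch 1 and 6 batch 2, and batch 2 held 3 K556R refed libraries and 1 of each other group. Libraries are named by repeat and batch, so that 2_b1 is repeat 2 of batch 1, and values are listed with batch 1 first. All 6 hepatocyte markers were detected in every library, at a summed 97896 to 141696 CPM (reads relative to the library total, after TMM scaling). Pck1, the gluconeogenic enzyme gene that fasting raises, had log2 fold changes on refeeding of −2.34 in K556R and −2.78 in wild type. Gene counts do not show the K556R base change; Prox1 mRNA was 0.72 log2 units lower in K556R than in wild type over both feeding states (SE 0.10, edgeR adjusted p = 0.00563). K556R refed 1_b1 and K556R fasted 1_b1 stood apart on the second principal component, at −57.3 and −39.5 against −8.06 to 10.7 in the other libraries.

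The 35 genes covered a wide range of levels, compared here as CPM per kilobase of merged exons and averaged over all 20 libraries. Trf, the plasma iron carrier transferrin made by hepatocytes, stood at 4152 ± 254 CPM per kilobase (SD, n = 20). Ftl1 followed at 1905 ± 248 and Fth1 at 308 ± 19.2 CPM per kilobase, without overlap between the 3. Tfr2, the transferrin receptor through which hepatocytes sense iron, came next at 78.2 ± 10.9 CPM per kilobase. The carriers with the next levels changed order with feeding, so they are given by group as mean ± SD of 5 libraries. In refed livers the order was Slc39a7 at 32.3 ± 4.73 CPM per kilobase in K556R and 32.9 ± 2.09 in wild type, Slc39a1 at 25.5 ± 2.10 and 24.0 ± 0.874, and Slc39a14 at 18.6 ± 0.815 and 19.5 ± 0.931. In fasted livers Slc39a14 came first, at 33.6 ± 2.31 CPM per kilobase in K556R and 33.0 ± 2.45 in wild type, before Slc39a1 at 27.8 ± 0.810 and 27.8 ± 0.656 and Slc39a7 at 26.5 ± 2.21 and 27.1 ± 1.89. Slc39a14 did not overlap Slc39a1 in any of the 4 groups, while Slc39a1 and Slc39a7 overlapped in all but wild-type refed livers. Slc30a10 stood at 17.4 ± 2.71 CPM per kilobase in K556R refed and 16.5 ± 4.09 in wild-type refed livers, overlapping Slc40a1 at 15.0 ± 3.64 and 13.1 ± 1.17. After fasting Slc30a10 was below Slc40a1 without overlap, at 8.43 ± 2.32 in K556R and 5.22 ± 1.63 in wild type, against 21.7 ± 3.01 and 18.1 ± 2.90 CPM per kilobase for Slc40a1. Slc30a1 and Slc39a4, at 10.9 ± 1.69 and 10.6 ± 4.23 CPM per kilobase over all 20 libraries, overlapped in every group but wild-type fasted. Over all 20 libraries the other tested genes ran from 7.08 CPM per kilobase for Slc39a9 down to 0.156 for Slc30a3.

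The order of the magnesium carriers also differed between feeding states. In refed livers Slc41a2 was highest, at 9.15 ± 1.57 CPM per kilobase in K556R and 7.85 ± 1.52 in wild type, followed by Slc41a1 at 1.10 ± 0.157 and 1.24 ± 0.106 and Slc41a3 at 0.633 ± 0.232 and 0.585 ± 0.201 (SD, n = 5), and Slc41a1 and Slc41a3 overlapped in K556R. In fasted livers Slc41a3, at 2.60 ± 0.593 CPM per kilobase in K556R and 2.42 ± 0.671 in wild type, overlapped Slc41a2, at 1.93 ± 0.221 and 2.28 ± 0.236, and Slc41a1 was below both Slc41a2 and Slc41a3 without overlap in K556R and wild type, at 0.711 ± 0.122 and 0.949 ± 0.203. At the low end, 3 genes did not pass the filter on low counts and were not tested. Slc30a2, which fills zinc vesicles of secretory cells, had 1 read in all libraries together. Slc30a8, the zinc carrier of insulin granules, had 2 to 17 reads per library, and Slc39a12, a brain zinc importer, 0 to 5. The remaining 32 genes were tested. Slc39a1, a plasma membrane zinc importer, varied least within groups, with a mean coefficient of variation of 4.29%, and Slc39a5 varied most, at 41.2%.

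**Figure D1:**
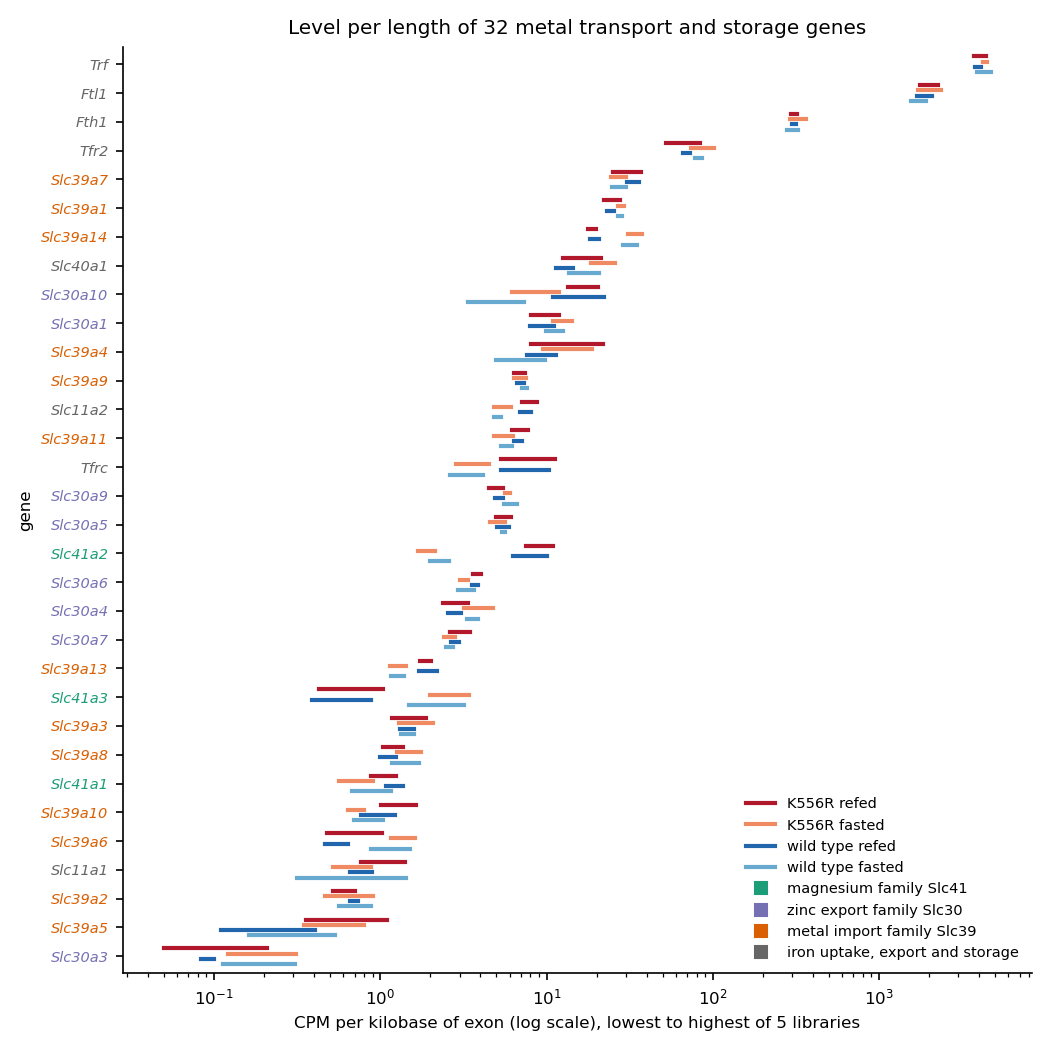
Levels of the 32 tested genes in CPM per kilobase of merged exons (log axis), with the lowest to highest of 5 libraries for each group and label colours by family. Trf, Ftl1 and Fth1 lie above the rest, and Slc30a3 lies lowest at 0.156 CPM per kilobase over all libraries.

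On refeeding, genes of each family moved in both directions, and 14 of the 30 genes counted changed in both genotypes with the same sign (46.7%), beside 34.3% of all genes tested. Tfrc, Slc30a10, Slc11a2, Slc39a13, Slc41a1, Slc30a6, Slc39a7 and Slc39a11 rose, and Slc41a3, Slc39a6, Slc40a1, Slc30a4, Slc30a9 and Tfr2 fell. In K556R livers 16 of 30 genes passed an adjusted p of 0.05 (53.3%), 10 higher and 6 lower, beside 39.9% of all 13894 genes tested (19.6% higher and 20.3% lower). In wild-type livers 18 of 30 passed (60%), 8 higher and 10 lower, beside 45.1% of all genes tested (20.9% higher and 24.2% lower). The refed and fasted CPM did not overlap for 9 of the 30 in K556R, beside 26.9% of all genes, and for 13 in wild type, beside 34.6%. The median log2 fold change of the 30 was −0.03 in K556R, against 0.01 over all genes tested, and 0.03 in wild type, against −0.01. Since the set was chosen on a refeeding result, nothing about the set is read from these counts. Without K556R refed 1_b1 and K556R fasted 1_b1, the libraries that stood apart, 14 of 30 passed in K556R, where Slc30a7 and Tfr2 no longer did, and 18 in wild type. Tests are edgeR quasi-likelihood tests with Benjamini-Hochberg adjustment over all genes tested.

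**Figure D2:**
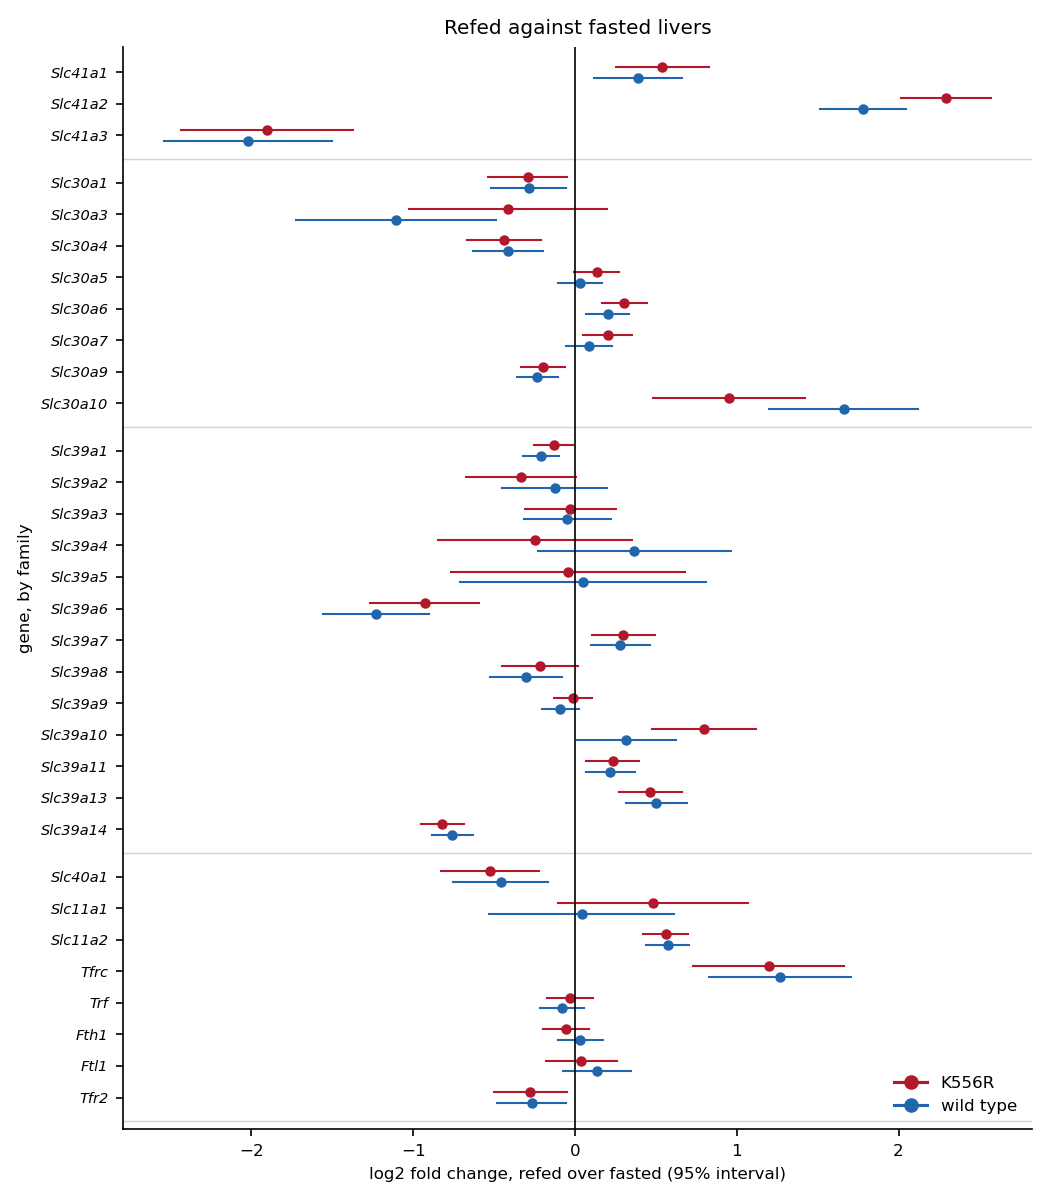
Log2 fold change of refed over fasted livers for the 32 tested genes by family, with 95% intervals, for K556R (red, upper) and wild type (blue, lower). Slc41a2 lies farthest to the right, at 2.29 in K556R and 1.78 in wild type, and Slc41a3 farthest to the left, at −1.90 in K556R and −2.02 in wild type.

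The 3 magnesium carriers did not move together. Slc41a2 (chr10:83230848-83337882, minus strand; positions are GENCODE gene spans on GRCm38), a membrane magnesium transporter, had the largest positive log2 fold change of the set in both genotypes. Its level was 57.0, 58.4, 46.9, 40.1 and 42.3 CPM in K556R refed livers, against 10.8, 11.5, 9.03, 9.05 and 11.2 CPM in K556R fasted livers. In wild-type livers it was 33.4, 38.6, 53.5, 47.0 and 37.3 CPM after refeeding and 11.3, 12.1, 13.9, 10.7 and 12.9 CPM after fasting. Every refed library lay above every fasted one in both genotypes, and among refed livers the highest K556R libraries were the 2 of batch 1. The difference was 4.90-fold in K556R (log2 2.29, SE 0.13) and 3.43-fold in wild type (log2 1.78, SE 0.13), given as a description because it chose the set. Within K556R the log2 ratio was 2.52 in batch 1 (2 refed, 4 fasted libraries) and 1.95 in batch 2 (3 refed, 1 fasted), and within wild type 1.85 in batch 1 and 1.53 in batch 2.

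Slc41a3 (chr6:90604725-90646412, plus strand), proposed from work on human cells to carry magnesium out of mitochondria, went the other way. Slc41a3 had 3.01, 1.25, 1.59, 1.64 and 1.73 CPM in K556R refed livers, against 9.95, 5.76, 8.51, 7.50 and 6.12 CPM in K556R fasted livers. The wild-type values were 2.55, 1.62, 1.13, 1.23 and 2.01 CPM after refeeding and 7.31, 9.23, 6.03, 8.42 and 4.30 CPM after fasting. No refed library of either genotype reached the lowest fasted library of that genotype. Slc41a3 fell 3.74-fold on refeeding in K556R (log2 −1.90, SE 0.25, edgeR adjusted p = 8.7e-06) and 4.06-fold in wild type (log2 −2.02, SE 0.25, edgeR adjusted p = 2.2e-06). Its wild-type log2 ratio was −2.25 within batch 1 and −1.10 between the single pair of batch 2.

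Slc41a1 (chr1:131827493-131848865, plus strand), described as a sodium-dependent magnesium exporter of the plasma membrane, rose in both genotypes. Slc41a1 had 4.32, 6.02, 6.08, 5.71 and 4.87 CPM in K556R refed livers, against 2.77, 3.36, 3.33, 3.58 and 4.42 CPM in K556R fasted livers. Wild-type refed livers had 6.01, 5.32, 6.75, 6.01 and 6.30 CPM and wild-type fasted livers 4.24, 4.47, 5.55, 3.31 and 5.72 CPM. In both genotypes the groups overlapped, in K556R through the lowest refed library (4.32 CPM) and the highest fasted one (4.42 CPM). The rise was 1.45-fold in K556R (edgeR adjusted p = 0.00356) and 1.31-fold in wild type (edgeR adjusted p = 0.0188), and without wild-type refed 3_b1 the wild-type adjusted p was 0.0571.

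Of 16 other tested genes for magnesium channels and transporters (CNNM, TRPM, NIPA and related proteins), 3 rose and 4 fell in K556R, and 2 rose and 5 fell in wild type. Magt1, a membrane protein of the oligosaccharyltransferase complex linked to magnesium transport, rose to 96.8 ± 11.9 CPM in K556R refed livers, against 59.4 ± 9.28 CPM in K556R fasted livers, and to 99.2 ± 5.18 CPM in wild-type refed livers, against 61.8 ± 4.36 CPM in wild-type fasted livers (SD, n = 5). Its log2 fold change was 0.70 in K556R (adjusted p = 2.22e-05 by edgeR) and 0.68 in wild type (adjusted p = 1.08e-05). Cnnm4, which extrudes magnesium from epithelial cells, fell by 0.74 log2 units in K556R (edgeR adjusted p = 0.000155) and fell by 1.10 in wild type (edgeR adjusted p = 8.4e-07). Cnnm2 fell by 0.40 and 0.39 log2 units in those genotypes (edgeR adjusted p = 0.0021 and 0.0014). Nipa1 rose by 1.24 in K556R (edgeR adjusted p = 0.000277) and had a log2 fold change of 0.52 in wild type (edgeR adjusted p = 0.0666). Trpm7, a magnesium-permeable channel, fell by 0.29 in K556R (edgeR adjusted p = 0.0159) and fell by 0.39 in wild type (edgeR adjusted p = 0.000989). The list's median log2 fold change was −0.06 in K556R and −0.03 in wild type, and 43.8% of it passed in K556R and 43.8% in wild type, beside 39.9% of all genes in K556R and 45.1% in wild type.

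**Figure D3:**
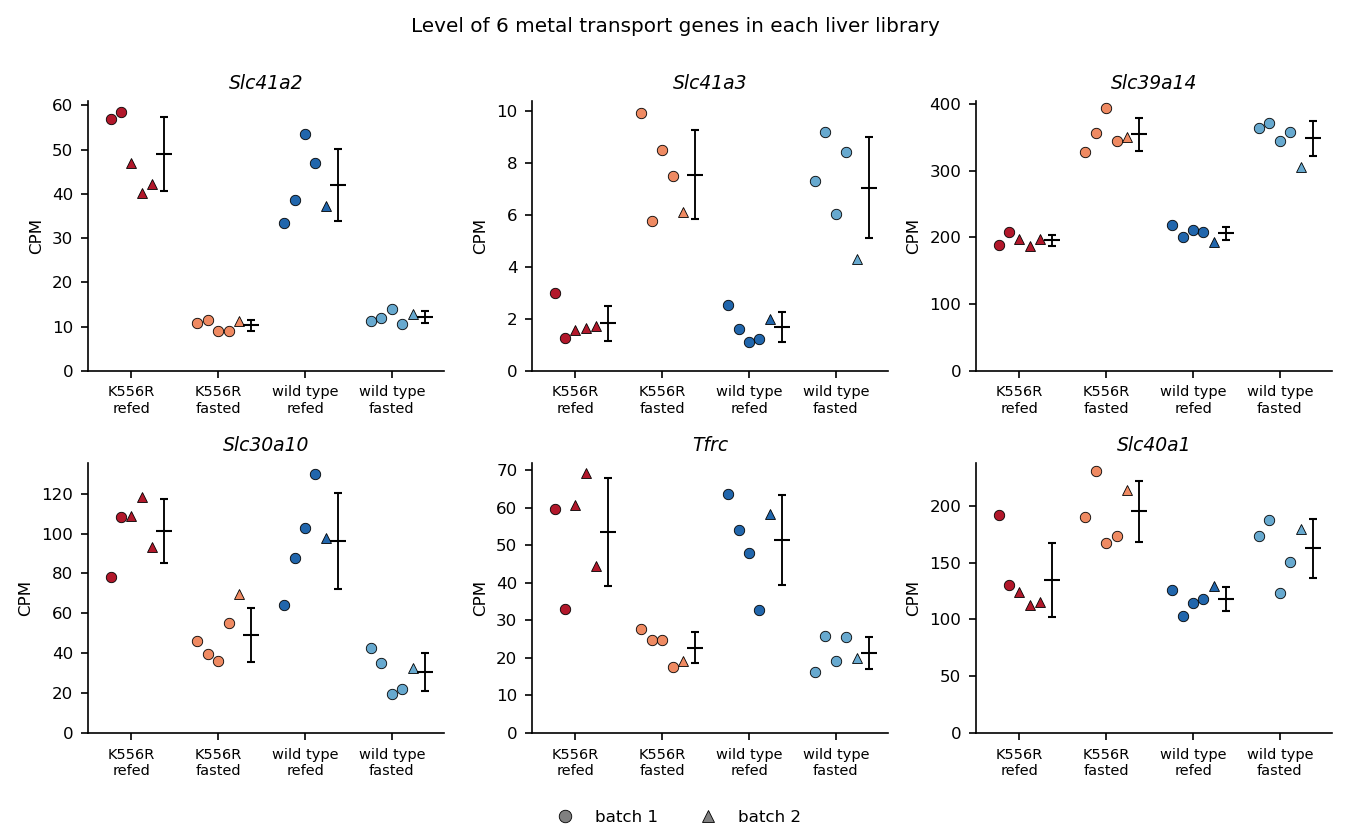
CPM in each library for Slc41a2, Slc41a3, Slc39a14, Slc30a10, Tfrc and Slc40a1, by group, with circles for batch 1, triangles for batch 2 and bars for mean ± SD of 5 libraries. Refed and fasted points separate in both genotypes in every panel except Slc40a1, where K556R refed 1_b1 at 192 CPM lies among the fasted libraries and wild-type fasted 3_b1 at 123 CPM among the refed ones.

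In the Slc30 export family, 3 of 8 tested genes rose and 2 fell in K556R, and 2 rose and 4 fell in wild type. That is 62.5% in K556R and 75% in wild type, beside 39.9% of all genes in K556R and 45.1% in wild type. The largest change was in Slc30a10 (chr1:185454848-185468762, plus strand), which despite its family name exports manganese and in the liver sends it to bile. Slc30a10 had 78.0, 108, 109, 118 and 93.1 CPM in K556R refed livers, against 46.0, 39.4, 35.9, 55.0 and 69.7 CPM in K556R fasted livers. Among wild-type livers, those refed had 63.9, 87.6, 103, 129.7 and 97.7 CPM and those fasted 42.7, 35.2, 19.7, 22.0 and 32.6 CPM. Refed and fasted libraries did not overlap in either genotype, and wild-type fasted livers had the lowest mean of the 4 groups. Slc30a10 rose 1.93-fold in K556R (log2 0.95, SE 0.22, edgeR adjusted p = 0.00227) and 3.16-fold in wild type (log2 1.66, SE 0.22, edgeR adjusted p = 7.72e-06). The difference between these changes was −0.71 log2 units (95% interval −1.36 to −0.06) and did not pass (interaction, unadjusted p = 0.0337, edgeR adjusted p = 1).

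Slc30a4, which loads zinc into vesicles, fell in both genotypes. Slc30a4 had 18.5, 13.7, 16.4, 15.4 and 13.1 CPM in K556R refed livers, against 26.1, 22.9, 19.3, 19.4 and 17.5 CPM in K556R fasted livers. In wild-type livers its level was 14.5, 14.2, 14.8, 13.9 and 16.8 CPM after refeeding and 19.3, 20.7, 18.2, 19.4 and 21.2 CPM after fasting. The wild-type groups did not overlap, while in K556R the highest refed library (18.5 CPM) exceeded the lowest fasted one (17.5 CPM). The fall was 1.36-fold in K556R (edgeR adjusted p = 0.00298) and 1.33-fold in wild type (edgeR adjusted p = 0.00273). Slc30a1, the zinc exporter of the plasma membrane, had means of 53.1 ± 8.95 CPM in K556R refed and 64.9 ± 6.25 CPM in K556R fasted livers, and 50.2 ± 6.49 CPM in wild-type refed and 61.3 ± 5.78 CPM in wild-type fasted livers (SD, n = 5). Its log2 fold change in K556R was −0.29 (edgeR adjusted p = 0.0547), and it fell by 0.29 log2 units in wild type (edgeR adjusted p = 0.0405). The K556R adjusted p was 0.0259 to 0.0303 without K556R refed 1_b2, K556R refed 2_b2, K556R fasted 1_b2 or wild-type fasted 1_b2, each left out alone. Leaving out 1 library took the wild-type adjusted p to between 0.0602 and 0.119 in 8 of 20 fits: those that lacked K556R refed 2_b1, any batch 1 wild-type fasted library, or repeat 1, 2 or 3 of the batch 1 wild-type refed libraries.

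Slc30a5, Slc30a6 and Slc30a7 carry zinc into the early secretory pathway. Slc30a6, which works as a pair with Slc30a5, rose by 0.30 log2 units in K556R (edgeR adjusted p = 0.00108) and by 0.20 in wild type (edgeR adjusted p = 0.0127). Slc30a5 had log2 fold changes of 0.13 in K556R and 0.03 in wild type (edgeR adjusted p = 0.127 and 0.728), and its K556R adjusted p was 0.0356 without K556R refed 2_b1 and 0.0361 without K556R fasted 2_b1. Slc30a7, which supplies zinc to secreted enzymes, rose by 0.20 in K556R (edgeR adjusted p = 0.0309), with 0.09 in wild type (edgeR adjusted p = 0.328). The Slc30a7 adjusted p in K556R was 0.212 without K556R refed 1_b1, 0.135 without K556R fasted 1_b2, 0.0622 without K556R fasted 4_b1 and 0.0502 without K556R refed 2_b2. Slc30a9, a zinc exporter of mitochondria, fell by 0.20 in K556R (edgeR adjusted p = 0.0187, and 0.152 without K556R refed 2_b1) and fell by 0.23 in wild type (edgeR adjusted p = 0.00405). Slc30a3, the zinc carrier of synaptic vesicles, had 6 to 37 reads per library. Slc30a3 had 0.594, 0.373, 0.142, 0.363 and 0.306 CPM in K556R refed livers, against 0.742, 0.343, 0.413, 0.883 and 0.419 CPM in K556R fasted livers. The wild-type values were 0.252, 0.285, 0.269, 0.277 and 0.237 CPM after refeeding and 0.684, 0.588, 0.870, 0.473 and 0.323 CPM after fasting. The groups overlapped in K556R and did not in wild type. Slc30a3 had a log2 fold change of −0.41 in K556R (edgeR adjusted p = 0.283) and fell by 1.11 log2 units in wild type (SE 0.30, edgeR adjusted p = 0.00446).

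In the Slc39 import family, 4 of the 12 genes counted rose and 1 fell in K556R, and 3 rose and 3 fell in wild type. The share that passed was 41.7% in K556R and 50% in wild type, beside 39.9% of all genes in K556R and 45.1% in wild type. Slc39a14 (chr14:70303469-70351425, minus strand), through which hepatocytes take up zinc, manganese and iron not bound to transferrin, was lower after refeeding. Slc39a14 had 188, 209, 198, 187 and 197 CPM in K556R refed livers, against 328, 356, 394, 345 and 350.4 CPM in K556R fasted livers. Wild-type refed livers had 218, 200.2, 211, 208 and 193 CPM and wild-type fasted livers 364, 372, 345, 358 and 306 CPM. The highest refed library of either genotype, at 218 CPM, lay below the lowest fasted library, at 306 CPM. The difference was 1.76-fold lower in K556R (log2 −0.82, SE 0.06) and 1.69-fold lower in wild type (log2 −0.76, SE 0.06), given as a description because it chose the set. Slc39a14 varied little within groups, with a mean coefficient of variation of 5.86%.

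Slc39a8, the closest relative of Slc39a14 and an importer of zinc and manganese, stood at 1.26 CPM per kilobase over all libraries, against 26.2 for Slc39a14. Slc39a8 had 9.30, 8.54, 10.5, 7.95 and 9.05 CPM in K556R refed livers, against 9.92, 13.4, 11.0, 10.5 and 9.64 CPM in K556R fasted livers. Among wild-type livers, those refed had 7.67, 9.55, 8.22, 8.32 and 7.94 CPM and those fasted 13.1, 9.66, 10.2, 9.56 and 8.97 CPM. The groups overlapped in both genotypes. Its log2 fold change in K556R was −0.22 (SE 0.11, edgeR adjusted p = 0.138), and it fell by 0.30 log2 units in wild type (SE 0.11, edgeR adjusted p = 0.0252). The wild-type adjusted p was 0.103 without wild-type fasted 1_b1, 0.0644 without wild-type refed 1_b1, 0.0521 without wild-type refed 3_b1 and 0.0751 with upper-quartile scaling.

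Slc39a6 and Slc39a10, plasma membrane zinc importers that form a complex with each other, had log2 fold changes of opposite sign. Slc39a6 had 4.16, 2.02, 1.95, 2.69 and 2.10 CPM in K556R refed livers, against 6.58, 5.42, 5.03, 5.68 and 4.71 CPM in K556R fasted livers. In wild-type livers its level was 2.18, 2.61, 1.88, 2.47 and 1.94 CPM after refeeding and 5.30, 5.88, 6.12, 5.51 and 3.57 CPM after fasting. Refed libraries lay below fasted libraries in both genotypes, with K556R refed 1_b1 the highest refed library. Slc39a6 fell 1.90-fold in K556R (log2 −0.93, SE 0.16, edgeR adjusted p = 0.000126) and 2.35-fold in wild type (log2 −1.23, SE 0.16, edgeR adjusted p = 3.07e-06). Elp2 overlaps its span on the other strand with 838 to 2153 reads per library, and its log2 fold change was 0.39 in K556R and 0.49 in wild type (edgeR adjusted p = 6.9e-05 and 2.22e-06). The labels do not say whether the libraries kept strand, so reads of overlapping genes cannot be told apart. Slc39a10 had 8.35, 6.41, 6.79, 9.95 and 6.12 CPM in K556R refed livers, against 4.88, 4.89, 4.33, 4.30 and 3.88 CPM in K556R fasted livers. The wild-type values were 4.64, 6.70, 7.46, 6.91 and 6.27 CPM after refeeding and 5.17, 4.22, 6.30, 5.53 and 4.54 CPM after fasting. For Slc39a10 the refed and fasted libraries did not overlap in K556R and overlapped in wild type, where refed 1_b1 at 4.64 CPM was below several fasted libraries and fasted 3_b1 at 6.30 CPM was just above refed 1_b2 at 6.27 CPM. Slc39a10 rose 1.74-fold in K556R (log2 0.80, SE 0.15, edgeR adjusted p = 0.000348), and its log2 fold change in wild type was 0.32 (SE 0.15, edgeR adjusted p = 0.0823). The wild-type adjusted p was 0.0201 without wild-type refed 1_b1, 0.0423 without wild-type fasted 3_b1 and 0.0445 without K556R refed 2_b2. The difference between the genotypes, 0.48 log2 units (95% interval 0.04 to 0.92), did not pass (unadjusted p = 0.0345, edgeR adjusted p = 1).

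Slc39a13, a zinc carrier of the secretory pathway needed for collagen formation, rose in both genotypes. Slc39a13 had 8.46, 9.86, 8.81, 8.38 and 8.50 CPM in K556R refed livers, against 6.93, 5.57, 6.04, 6.78 and 6.68 CPM in K556R fasted livers. Wild-type refed livers had 8.48, 8.36, 10.7, 8.55 and 8.50 CPM and wild-type fasted livers 6.76, 5.80, 6.66, 5.67 and 6.56 CPM. Every refed library exceeded every fasted one, and wild-type refed 3_b1 was the highest of all. The rise was 1.38-fold in K556R (edgeR adjusted p = 0.000493) and 1.42-fold in wild type (edgeR adjusted p = 0.000118). Psmc3 overlaps Slc39a13 on the other strand with 2652 to 4745 reads per library, and its log2 fold change was 0.06 in K556R and 0.11 in wild type, neither past the threshold. Slc39a7, which releases zinc from the endoplasmic reticulum, rose by 0.30 log2 units in K556R (edgeR adjusted p = 0.0142, and 0.0623 without K556R refed 2_b1) and by 0.28 in wild type (edgeR adjusted p = 0.0131). Slc39a11 rose by 0.23 in K556R (edgeR adjusted p = 0.0222) and by 0.22 in wild type (edgeR adjusted p = 0.02). Its adjusted p was 0.0521 and 0.135 in K556R without K556R fasted 1_b1 or 1_b2, and 0.0554 and 0.057 in wild type without wild-type fasted 1_b1 or refed 2_b1. Sstr2 and Cog1 overlap Slc39a11 on the other strand with 18 to 180 and 48 to 108 reads per library. Sstr2 rose too, by 1.00 in K556R and by 1.05 in wild type (edgeR adjusted p = 0.0029 and 0.00214), and reads of the overlapping genes cannot be told apart. Slc39a1 had a log2 fold change of −0.13 in K556R (edgeR adjusted p = 0.0714, and 0.0269 without K556R refed 2_b1) and fell by 0.21 in wild type (edgeR adjusted p = 0.00315).

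The Slc39 genes that passed in neither genotype were Slc39a2, Slc39a3, Slc39a4, Slc39a5 and Slc39a9, with log2 fold changes of −0.34 to −0.01 in K556R and −0.13 to 0.37 in wild type. Slc39a2 and Slc39a3 are zinc importers of the plasma membrane and Slc39a9 is a zinc carrier of the Golgi. Without K556R fasted 3_b1 the K556R edgeR adjusted p of Slc39a2 was 0.0181. Erh overlaps Slc39a9 on the other strand with 553 to 1223 reads per library. Its log2 fold change was 0.32 in K556R and 0.40 in wild type (edgeR adjusted p = 0.0012 and 6.81e-05), and reads of the 2 genes cannot be told apart. Slc39a4, the zinc importer of the intestine that is mutated in acrodermatitis enteropathica, was uneven between libraries. It had 25.0, 67.4, 30.5, 26.0 and 27.6 CPM in K556R refed livers, against 29.5, 32.7, 33.6, 57.2 and 58.2 CPM in K556R fasted livers. Wild-type levels were 35.4, 23.6, 31.7, 26.7 and 33.6 CPM after refeeding and 24.7, 25.5, 15.3, 30.4 and 21.3 CPM after fasting. K556R refed 2_b1 and K556R fasted 4_b1 and 1_b2 were the 3 highest libraries, and without K556R refed 2_b1 the K556R adjusted p for refeeding was 0.0195, with a log2 fold change of −0.72.

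Beside the carriers, the metallothioneins, small cysteine-rich proteins that bind zinc and copper, fell on refeeding by more log2 units than any gene of the set. Mt1 had 4.34, 2.39, 2.33, 1.57 and 2.64 CPM in K556R refed livers, against 142, 88.2, 276, 245 and 104 CPM in K556R fasted livers. In wild-type livers Mt1 was at 6.91, 1.47, 1.54, 2.03 and 3.15 CPM after refeeding and 163, 147, 60.6, 111 and 23.7 CPM after fasting. Refed and fasted libraries did not overlap, and wild-type fasted 1_b2 was the lowest of the fasted libraries. Mt1 fell by 5.66 log2 units in K556R (SE 0.57, edgeR adjusted p = 1.19e-06) and fell by 4.93 in wild type (SE 0.54, edgeR adjusted p = 1.83e-06). Mt2 ranged over 0.229 to 1.67 CPM in K556R refed and 65.8 to 238 CPM in K556R fasted livers, and over 0.594 to 1.17 CPM in wild-type refed and 8.05 to 132 CPM in wild-type fasted livers. Mt2 fell by 6.93 log2 units in K556R (edgeR adjusted p = 6e-07) and fell by 6.37 in wild type (edgeR adjusted p = 7.89e-07). Mtf1 had a log2 fold change of −0.08 in K556R (edgeR adjusted p = 0.425) and fell by 0.24 in wild type (edgeR adjusted p = 0.00664). Of the list, 2 of the 3 tested genes of zinc buffering and sensing fell in K556R and 3 of 3 in wild type, and none rose, while Mt3 and Mt4 were at or near 0 and not tested. That is 66.7% of only 3 genes in K556R and 100% in wild type, beside 39.9% of all genes in K556R and 45.1% in wild type.

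**Figure D4:**
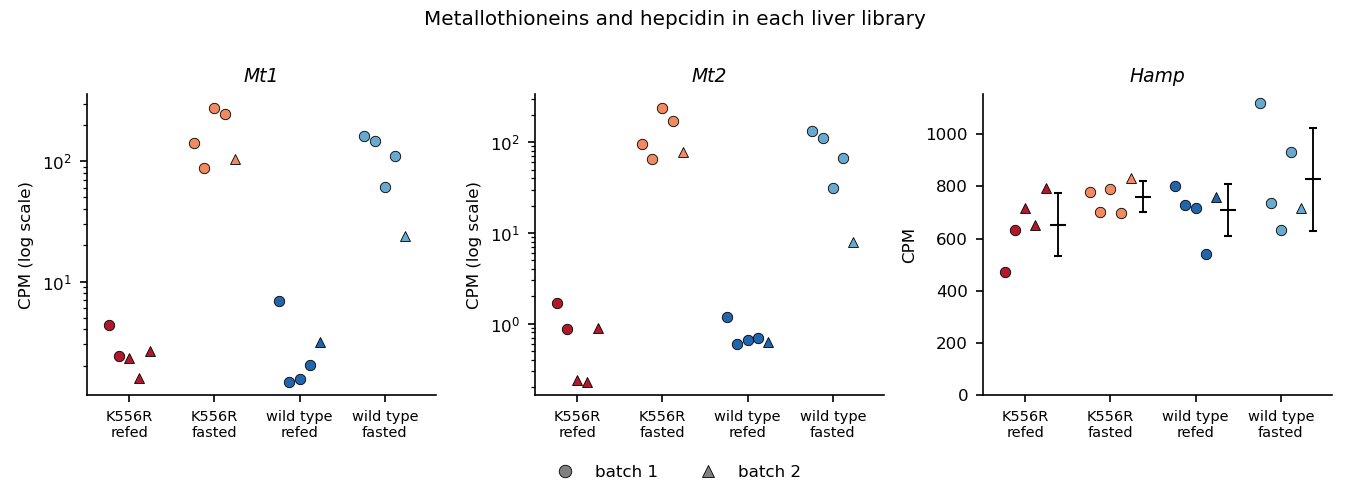
CPM in each library for Mt1 and Mt2 (log axes) and Hamp (linear axis from 0), by group, with circles for batch 1 and triangles for batch 2. Mt1 lies at 1.57 to 4.34 CPM in K556R refed and 88.2 to 276 CPM in K556R fasted livers, while the Hamp groups overlap in both genotypes.

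Slc39a14 and the metallothioneins are known in mouse liver as genes that interleukin-6 raises during inflammation. Of 15 tested genes of the interleukin-6 acute phase response, 5 fell in K556R and 5 fell in wild type on refeeding, and 0 rose in either. This share, 33.3% in each genotype, was below that of all genes, 39.9% in K556R and 45.1% in wild type. Il6ra, the interleukin-6 receptor, fell by 2.01 log2 units in K556R (edgeR adjusted p = 2e-06) and fell by 1.99 in wild type (edgeR adjusted p = 6.71e-07). Lbp, a plasma protein that binds bacterial lipopolysaccharide, fell by 1.18 in K556R (edgeR adjusted p = 5.63e-07) and fell by 1.08 in wild type (edgeR adjusted p = 5.76e-07). The receptor subunit Il6st fell by 0.31 in K556R and fell by 0.56 in wild type, and the transcription factor Stat3 by 0.30 in K556R and 0.35 in wild type (edgeR adjusted p at most 0.0114). The list's median log2 fold change was −0.07 in K556R and −0.08 in wild type, and 10 of the 15 genes did not pass in each genotype. Saa1, Saa2, Orm1, Orm2 and Crp had higher means in refed than in fasted livers of both genotypes, and none of these passed as higher. Saa3, Fga, Fgb, Fgg and Itih4 had lower means in refed livers of both genotypes. The part of interleukin-6 in the changes of Slc39a14 and the metallothioneins was not tested.

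Among the 8 genes of iron uptake, export and storage, Tfrc and Slc11a2 rose and Slc40a1 and Tfr2 fell in both genotypes, and the other 4 passed in neither. The share that passed was 50% in each genotype, beside 39.9% of all genes in K556R and 45.1% in wild type. Tfrc (chr16:32608920-32632794, plus strand) encodes the transferrin receptor that brings iron into most cells, and its 3′ UTR holds the 4 hairpins shown earlier. Tfrc had 59.7, 33.1, 60.6, 69.1 and 44.5 CPM in K556R refed livers, against 27.7, 24.7, 24.6, 17.6 and 19.1 CPM in K556R fasted livers. Among wild-type livers, those refed had 63.7, 54.0, 48.0, 32.8 and 58.4 CPM and those fasted 16.2, 25.8, 19.1, 25.5 and 19.9 CPM. The groups did not overlap in either genotype, and the lowest refed libraries stood at 33.1 CPM in K556R and 32.8 CPM in wild type. Tfrc rose 2.29-fold in K556R (log2 1.20, SE 0.22, edgeR adjusted p = 0.000325) and 2.41-fold in wild type (log2 1.27, SE 0.21, edgeR adjusted p = 7.69e-05).

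Slc11a2 (chr15:100387898-100425072, minus strand), which moves iron released from transferrin out of endosomes, rose as well. Slc11a2 had 48.4, 55.6, 49.1, 45.4 and 46.6 CPM in K556R refed livers, against 35.9, 38.9, 30.5, 31.0 and 34.2 CPM in K556R fasted livers. In wild-type livers its level was 47.9, 48.6, 51.2, 47.8 and 44.1 CPM after refeeding and 32.3, 31.2, 33.3, 33.6 and 30.8 CPM after fasting. Every refed library exceeded every fasted one, within a narrow spread. The rise was 1.47-fold in K556R (log2 0.56, SE 0.07, edgeR adjusted p = 2.26e-06) and 1.49-fold in wild type (log2 0.57, SE 0.06, edgeR adjusted p = 6.73e-07). Steap3, the reductase that prepares endosomal iron for Slc11a2, rose to 21.0 ± 3.64 CPM in K556R refed livers, against 10.1 ± 0.873 CPM in K556R fasted livers, and to 19.2 ± 1.66 CPM in wild-type refed livers, against 9.27 ± 1.28 CPM in wild-type fasted livers (SD, n = 5). Its log2 fold change was 1.05 in K556R (edgeR adjusted p = 7.06e-07) and 1.04 in wild type (edgeR adjusted p = 3.55e-07). Tfrc, Steap3 and Slc11a2, which act one after the other on transferrin iron, were each higher in every refed library than in any fasted library of their genotype. Such separation of refed and fasted libraries, in either direction, held for 26.9% of all genes tested in K556R and 34.6% in wild type. Trf, the carrier itself, passed in neither genotype.

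Slc40a1 (chr1:45908068-45926523, minus strand), the iron exporter that hepcidin removes, fell. Slc40a1 had 192, 130.1, 124, 113 and 115 CPM in K556R refed livers, against 190.0, 231, 167, 173 and 214 CPM in K556R fasted livers. The wild-type values were 126, 103, 115, 118 and 129.8 CPM after refeeding and 173, 187, 123, 150.4 and 179 CPM after fasting. The groups overlapped in both genotypes, in K556R through refed 1_b1 alone and in wild type through fasted 3_b1 at 123 CPM. Slc40a1 fell 1.44-fold in K556R (log2 −0.52, SE 0.14, edgeR adjusted p = 0.00694) and 1.38-fold in wild type (log2 −0.46, SE 0.14, edgeR adjusted p = 0.0114). In K556R the log2 fold change within batch 1, with 2 refed libraries, was −0.24 (edgeR adjusted p = 0.352), and the log2 ratio within batch 2 was −0.87; leaving out K556R refed 1_b1 took the log2 fold change to −0.74 (edgeR adjusted p = 8.32e-05). Macrophages also express Slc40a1, and fewer cells of a type and less RNA per cell cannot be told apart in whole liver. The summed level of 10 Kupffer cell and macrophage markers was 97.6 to 198 CPM in K556R refed, 103 to 133 CPM in K556R fasted, 82.6 to 134 CPM in wild-type refed and 58.0 to 306 CPM in wild-type fasted livers, with no marker at 0 in all libraries. K556R refed 1_b1 had the highest Kupffer and macrophage sum of its group at 198 CPM. It also had the highest marker sums of its group for lymphocytes, monocytes and neutrophils, endothelial, stellate and proliferating cells, and cholangiocytes. Its erythroid sum was the lowest of the group. The part of any of these cells in the Slc40a1 result was not tested.

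Tfr2 averaged 314 ± 54.4 CPM in K556R refed and 378 ± 44.7 CPM in K556R fasted livers, and 301 ± 13.6 CPM in wild-type refed and 363 ± 15.8 CPM in wild-type fasted livers (SD, n = 5). It fell by 0.28 log2 units in K556R (edgeR adjusted p = 0.0471) and fell by 0.27 in wild type (edgeR adjusted p = 0.0374), close to the threshold in both. The K556R adjusted p was 0.0522 to 0.229 in 16 of 20 fits with 1 library left out, all but those without K556R fasted 1_b1, K556R refed 2_b1 or 3_b2, or wild-type fasted 1_b2. In wild type it was 0.058 to 0.0823 in 7 of 20 such fits, namely those that lacked any batch 1 wild-type fasted library or, of the wild-type refed ones, 3_b1, 4_b1 or 1_b2.

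Trf, Fth1, Ftl1 and Slc11a1 did not pass in either genotype. Trf averaged 13771 ± 960.3 CPM in K556R refed and 14370.2 ± 307 CPM in K556R fasted livers, and 13114 ± 408 CPM in wild-type refed and 13877 ± 1095 CPM in wild-type fasted livers (SD, n = 5). Fth1 averaged 1071 ± 35.8 CPM in K556R refed and 1114 ± 103 CPM in K556R fasted livers, and 1059 ± 25.6 CPM in wild-type refed and 1036 ± 66.6 CPM in wild-type fasted livers. Ftl1 averaged 2789 ± 262 CPM in K556R refed and 2673 ± 411 CPM in K556R fasted livers, and 2487 ± 226 CPM in wild-type refed and 2264 ± 192 CPM in wild-type fasted livers. The 95% interval of the refeeding log2 fold change was −0.20 to 0.09 for Fth1 in K556R and −0.11 to 0.17 in wild type. For Ftl1 the interval was −0.18 to 0.26 in K556R and −0.07 to 0.34 in wild type, and for Trf −0.17 to 0.11 in K556R and −0.22 to 0.05 in wild type. Ferritin genes have close copies in the mouse genome, so the split of their reads depends on counting choices that the labels do not give. Slc11a1, the divalent metal carrier of macrophage phagosomes, had 2.85 to 5.20 CPM in K556R refed and 1.93 to 3.27 CPM in K556R fasted livers, and 2.45 to 3.28 CPM in wild-type refed and 1.17 to 5.32 CPM in wild-type fasted livers. The highest Slc11a1 libraries, wild-type fasted 2_b1 at 5.32 CPM and K556R refed 1_b1 at 5.20 CPM, were also those with the highest Kupffer marker sums, 306 and 198 CPM; the part of these cells was not tested.

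Of 17 tested genes of the hepcidin pathway, 2 rose and 8 fell in K556R, and 3 rose and 6 fell in wild type. Hamp encodes hepcidin and has a related copy in Hamp2. Hamp averaged 653 ± 119.6 CPM in K556R refed and 761 ± 58.1 CPM in K556R fasted livers. In wild type it averaged 709 ± 99.9 CPM in refed and 827 ± 197 CPM in fasted livers (SD, n = 5). Its log2 fold change of −0.28 in K556R and −0.23 in wild type did not pass (edgeR adjusted p = 0.154 and 0.212). Hfe2, the older symbol of hemojuvelin, a coreceptor for bone morphogenetic proteins (BMP) that drives Hamp, rose by 0.65 log2 units in K556R (edgeR adjusted p = 8.28e-06) and by 0.96 in wild type (edgeR adjusted p = 3.48e-08). Hfe, the gene of common human hemochromatosis, rose by 0.25 in K556R (edgeR adjusted p = 0.00115) and by 0.29 in wild type (edgeR adjusted p = 0.000145). Smad4, the shared transducer of BMP signals, fell by 0.42 in K556R (edgeR adjusted p = 6.14e-05) and fell by 0.46 in wild type (edgeR adjusted p = 7.27e-06). Id1 and Smad7, targets of that signal, fell by 1.26 and 1.03 in K556R (edgeR adjusted p = 0.000684 and 0.00021), with log2 fold changes of −0.47 and −0.40 in wild type (edgeR adjusted p = 0.132 and 0.0706). The list's median log2 fold change was −0.19 in K556R and −0.28 in wild type, and 58.8% of it passed in K556R and 52.9% in wild type, beside 39.9% of all genes in K556R and 45.1% in wild type.

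Of 11 tested genes of cellular iron sensing, reduction, oxidation and release, which include Steap3, 3 rose and 2 fell in K556R, and 2 rose and 4 fell in wild type. Ncoa4, the receptor that sends ferritin to lysosomes to free its iron, fell by 0.77 in K556R and fell by 0.71 in wild type (edgeR adjusted p = 8.5e-06 and 6.75e-06). Pcbp2, an RNA-binding protein that also chaperones iron, fell by 0.56 in K556R and fell by 0.58 in wild type (edgeR adjusted p = 3.19e-07 and 7.73e-08). Pcbp1, its relative, rose by 0.26 in K556R and by 0.31 in wild type (edgeR adjusted p = 0.0352 and 0.00746). Of 13 tested genes of heme handling, 0 rose and 6 fell in K556R, and 1 rose and 7 fell in wild type. Hmox1, the inducible enzyme that opens heme and frees its iron, fell by 1.05 in K556R and fell by 1.09 in wild type (edgeR adjusted p = 0.005 and 0.0021), and Hmox2, its constitutive partner, fell by 0.59 in K556R and fell by 0.42 in wild type (edgeR adjusted p = 6.2e-05 and 0.000807). Cd163, the hemoglobin scavenger receptor of macrophages, averaged 5.14 ± 0.811 CPM in K556R refed and 12.2 ± 0.727 CPM in K556R fasted livers, and 4.85 ± 1.21 CPM in wild-type refed and 12.3 ± 10.1 CPM in wild-type fasted livers, where 2_b1 had 30.1 CPM and the highest Kupffer marker sum. Cd163 fell by 1.28 in K556R and fell by 1.35 in wild type (edgeR adjusted p = 0.00962 and 0.00434), and the part of macrophage number in this was not tested. Alas1, the first enzyme of heme synthesis, fell by 1.51 in K556R and fell by 1.07 in wild type (edgeR adjusted p = 0.000752 and 0.00633). Of 8 mitochondrial iron genes, 2 rose and 1 fell in K556R, and 3 rose and 1 fell in wild type; the iron importers Slc25a37 (log2 0.59 in K556R, 0.52 in wild type) and Slc25a28 (−0.26 and −0.38) passed in opposite directions. Of 7 copper transport genes, 2 rose and 1 fell in K556R and 1 rose and 1 fell in wild type, with Atp7b, the copper pump that loads ceruloplasmin, higher by 0.85 in K556R and by 0.77 in wild type (edgeR adjusted p = 1.4e-05 and 1.83e-05). The median log2 fold changes of these lists were −0.08 in K556R and −0.16 in wild type for iron sensing, −0.19 and −0.25 for heme, 0.05 and 0.13 for mitochondrial iron, and 0.05 and 0.09 for copper, beside the medians near 0 of all genes given earlier. The shares that passed were 45.5% in K556R and 54.5% in wild type for iron sensing, 46.2% and 61.5% for heme, 37.5% and 50% for mitochondrial iron, and 42.9% and 28.6% for copper, beside 39.9% of all genes in K556R and 45.1% in wild type.

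Between genotypes, none of the 32 tested genes passed by edgeR in refed livers (0% of all genes tested), in fasted livers (0%), or over both feeding states (0.0288%), and none of the 30 counted passed in the test of whether refeeding acted differently in K556R (interaction, 0%). At an unadjusted p under 0.05 there were 4 genes in refed livers (Slc30a3, Slc39a5, Slc39a6 and Slc41a2), beside 4.99% of all genes, and 5 in fasted livers (Ftl1, Slc30a10, Slc39a4, Slc39a5 and Slc41a1), beside 8.18%. Over both feeding states there were 5 (Ftl1, Slc39a4, Slc39a5, Slc40a1 and Slc41a1), beside 9.27%, and in the interaction 2 (Slc30a10 and Slc39a10), beside 3.98%. DESeq2 called 0 of them in refed and in fasted livers and in the interaction, and 1, Slc39a5, over both feeding states. No gene of the zinc, magnesium, hepcidin, iron, heme, copper or acute phase lists passed by edgeR in any of these comparisons.

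Slc39a5, a zinc importer best known from pancreas and intestine, had the lowest p of the set between genotypes in refed livers and over both feeding states. In refed livers it had 1.21, 0.790, 1.31, 1.57 and 2.45 CPM in K556R, against 0.643, 0.903, 0.245, 0.717 and 0.733 CPM in wild type. In fasted livers it had 1.78, 1.31, 0.774, 1.19 and 1.53 CPM in K556R, against 1.19, 0.511, 0.360, 0.361 and 0.646 CPM in wild type. The genotypes overlapped in both feeding states, and every library held only 10 to 112 reads. The averaged log2 difference of K556R over wild type was 1.02 (95% interval 0.50 to 1.54; edgeR adjusted p = 0.3), and DESeq2 gave 1.03 (adjusted p = 0.0299). Ankrd52 overlaps it on the other strand with 1294 to 2265 reads per library. Slc41a1 had the next lowest p over both feeding states and the lowest p in fasted livers, before Slc39a5. Its log2 difference was −0.34 over both feeding states (95% interval −0.54 to −0.14, edgeR adjusted p = 0.311), −0.27 in refed and −0.41 in fasted livers. For Slc39a6 in refed livers the log2 difference was 0.37 (95% interval 0.03 to 0.72; edgeR adjusted p = 0.965).

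For Slc41a2, K556R refed livers averaged 49.0 ± 8.38 CPM and wild-type refed livers 42.0 ± 8.16 CPM, while fasted livers averaged 10.3 ± 1.18 CPM in K556R and 12.2 ± 1.26 CPM in wild type (SD, n = 5). The refeeding difference of K556R minus that of wild type was 0.51 log2 units for Slc41a2 and −0.06 for Slc39a14, given as a description because it is built from the values that chose the set. For Tfrc this interaction was −0.07 (95% interval −0.70 to 0.56) and for Slc41a3 0.12 (−0.60 to 0.84).

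**Figure D5:**
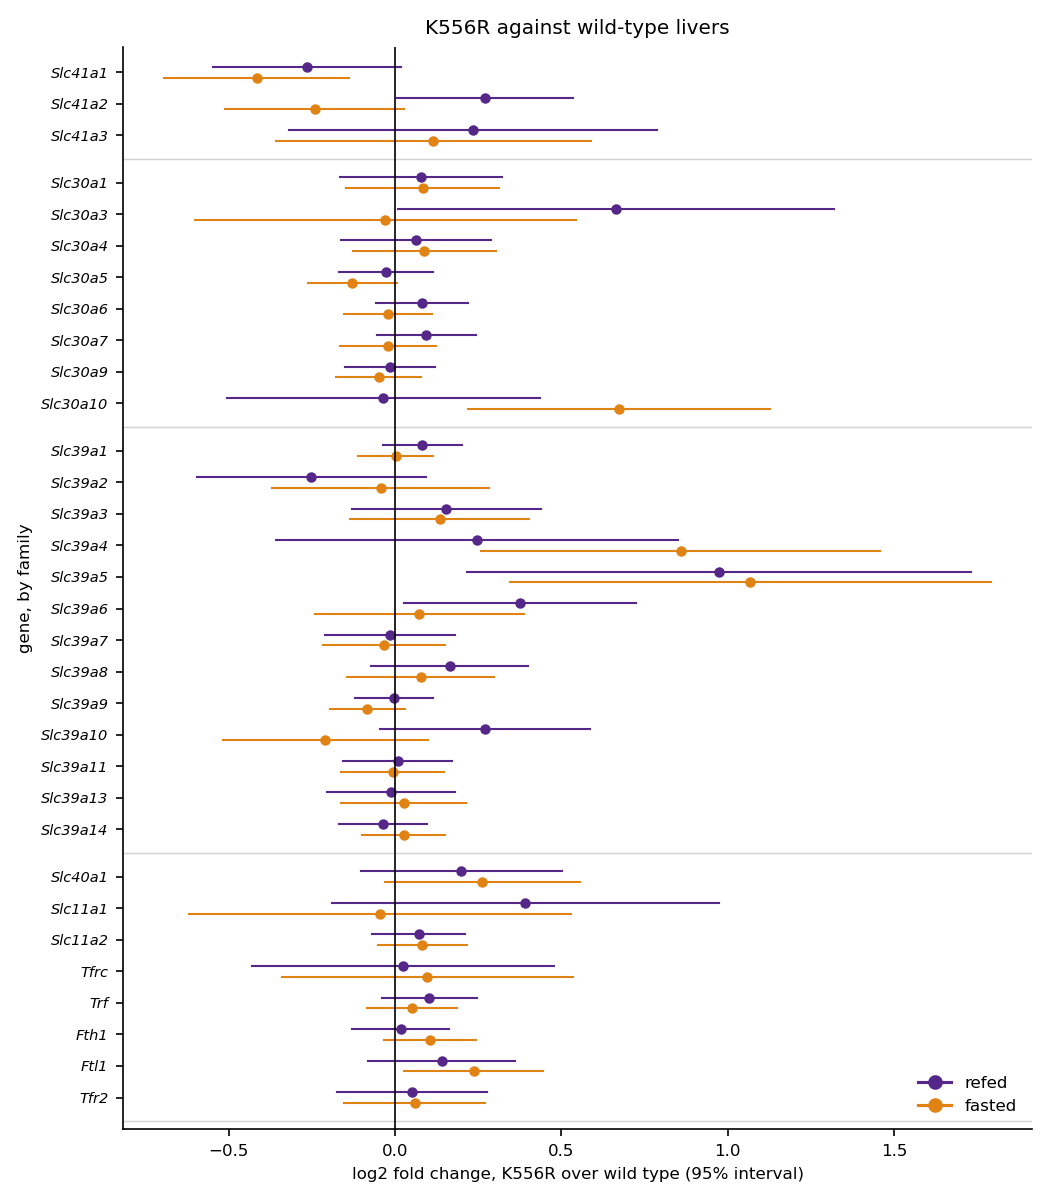
Log2 difference of K556R over wild type for the 32 tested genes, with 95% intervals, in refed (purple, upper) and fasted (orange, lower) livers. Slc39a5 lies farthest to the right, at 0.97 in refed and 1.07 in fasted livers, and no gene passed the adjusted threshold by edgeR.

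Promoters were searched for the letters TGCACNC and TGCGCNC, the core of the metal response element bound by Mtf1, on both strands of the 250 bases before each RefSeq start (GRCm38.p6), with overlapping matches counted. Of 37 promoters of 28 genes of the set, 15 held at least 1 match (40.5%), beside 21.4% of 32851 promoters, and 4 held at least 2, beside 5.17%. The other 7 genes, Slc39a14, Slc40a1, Slc11a2, Slc39a4, Slc39a6, Slc30a8 and Trf, had no promoter sequence to search. Mt2 had 3 matches and Mt1 had 1, while Slc30a1, a known Mtf1 target, had 1 and Slc30a10 had 3, of which 2 overlap. Matches were also present in the promoters of Slc41a2, Slc41a3 and Tfrc, whose refeeding differences had different signs, and the 2 matches of Tfrc overlap. Elements that depart from these letters are missed, so few or no matches do not show that a promoter lacks the element. The start used in liver may differ from the RefSeq start, and a match is a description, not a binding site.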

How the data were processed

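RNA of 20 mouse livers was sequenced after poly(A) selection, and the authors deposited 1 table of read counts per gene, described per the labels by genotype, feeding state, repeat and batch. Per the submitters' processing notes, the genome was mm10 and the tools were TopHat, STAR, STAR-Fusion, HTSeq, edgeR and DESeq2. The role and version of each tool, and the handling of strand, were not given in the sources used here. Reads shared by near-identical copies or by genes on opposite strands can be split or lost by such counting, and 14 of the 35 genes overlap a gene on the other strand. The deposited counts were whole numbers and were analysed as deposited, with totals of 33746054 to 50647297 per library; n = 5 libraries per group sets the precision. Genes were kept by edgeR's filterByExpr (minimum count 10, minimum total 15), scaled by TMM and fitted with the robust quasi-likelihood model of edgeR 4.0.16 in R 4.3.3, with a term for each of the 4 groups and for batch, over all 20 libraries. P-values were adjusted by Benjamini-Hochberg over 13894 genes with a threshold of 0.05, and 95% intervals come from the same fit. CPM use TMM-scaled library sizes, and levels are set between genes only as CPM per kilobase of merged GENCODE exons. The script was tested on simulated data with known fold changes. DESeq2 1.42.0, other scalings and filters, fits without batch, within batch 1, with a replicate block, on the compared groups alone and with each library left out were alternatives; so was a fit without the 2 libraries that stood apart, and a fit without 3 libraries was chosen after seeing the data. The genes and lists were chosen with earlier results of these data known. Every library's value is given for Slc41a2, Slc39a14, Tfrc, Slc40a1, for up to 10 further genes with the largest changes among those passing on refeeding, and for those with the lowest p in each genotype comparison and the interaction; of each other list up to 4 genes with the lowest p in each refeeding comparison are named, and Mt1, Mt2 and Hamp whatever their p. Slc39a4, Slc30a1, Tfr2, Trf, Fth1 and Slc11a1 were described further after their values were seen. Comparison of protein sequences was planned and not run. No 2 libraries of a group agreed within sampling noise (lowest chi-square per degree of freedom 11.9).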

Additional observations from a re-analysis of the deposited data

Results flagged for a closer look

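In 5 of 128 groups of 5 libraries, 1 library lay far from the other 4 by Dixon's test, and chance alone marks about 1 group in 20. K556R refed 1_b1 had 192 CPM of Slc40a1, against 113 to 130.1 CPM in the other K556R refed libraries. The same library had 3.01 CPM of Slc41a3, against 1.25 to 1.73 CPM in the others. K556R refed 2_b1 had 67.4 CPM of Slc39a4, against 25.0 to 30.5 CPM in the others of its group, and 9.86 CPM of Slc39a13, against 8.38 to 8.81 CPM. Wild-type refed 3_b1 had 10.7 CPM of Slc39a13, against 8.36 to 8.55 CPM in the other wild-type refed libraries. No cause was tested for these values.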

How the results depend on the processing

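No fold change that was followed for sign was reversed under the alternatives run. Those followed were of genes with values given by library, in comparisons where they passed, chose the set or had the lowest p. Other fold changes were not followed for sign. Among these, Slc39a4 in K556R had a refeeding log2 fold change of −0.25 in the main fit, but a log2 ratio of 0.27 within batch 1. The number of genes of the set passing on refeeding was 12 to 18 in K556R and 15 to 18 in wild type over the other scalings, filters, tools and designs, and 14 to 17 in K556R and 14 to 19 in wild type with 1 library left out. Of the calls, 10 of 16 in K556R and 11 of 18 in wild type were kept in every alternative that tested the gene, among them Slc41a3, Slc30a10, Slc39a6, Slc11a2 and Tfrc in both genotypes. Between genotypes the number passing was 0 under every alternative, except that DESeq2 called 1 gene, Slc39a5, over both feeding states; the cause was not tested. Repeat numbers did not pair the libraries as a rule: the correlation of deviations between same-numbered libraries was −0.371 to 0.65 over 24 pairs. Of these, 4 exceeded 0.1. The highest, 0.65, was between K556R refed 1_b1 and K556R fasted 1_b1, the libraries that stood apart, and the next was 0.186. What those libraries shared was not tested. With a replicate block, 12 genes passed on refeeding in K556R and 18 in wild type, and 0 between genotypes or in the interaction. With batch 1 alone the numbers were 12 in K556R and 15 in wild type, from fewer libraries. Without K556R refed 1_b1, K556R fasted 1_b1 and wild-type fasted 1_b2, a choice made after seeing the data, they were 14 in K556R and 18 in wild type. Depth limits Slc30a3 and Slc39a5, with at most 37 and 112 reads per library.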
